A study of Schizosaccharomyces pombe with 39 samples.

Results

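The nuclear genes of the mitochondrial respiratory chain and ATP synthase were followed through depletion, recovery, re-depletion and deletion of Epe1 in the fission yeast Schizosaccharomyces pombe. They were taken as every row of the deposited tables whose name begins with cox, qcr or atp and a digit, which gave 48 of 6745 rows. Of these, 43 were genes and 5 were rows for antisense RNAs, each named after a gene. Apart from cox15-antisense-1, which lies largely opposite cox16, they lie opposite the gene in their name. The 43 genes comprised 7 subunits of complex III, 8 subunits of complex IV, 10 complex IV assembly factors, 5 subunits of the F1 part of ATP synthase, 8 subunits of its Fo part and stalks, and 5 ATP synthase assembly factors. The tables held 0 member rows from the mitochondrial genome, so the mitochondrially encoded subunits (cytochrome b, the core of complex IV and part of Fo) were not analysed here. All 43 genes passed the filter on low counts in every fit.

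Complex III (the cytochrome bc1 complex) passes electrons from ubiquinol to cytochrome c, and complex IV (cytochrome c oxidase) passes them from cytochrome c to oxygen. Both pump protons out of the mitochondrial matrix, and the flow of protons back through Fo turns the rotor that drives ATP formation in F1. Fission yeast has no proton-pumping complex I, grows well by fermenting glucose, and feeds its chain through complex II and alternative NADH dehydrogenases. Haem and iron-sulfur clusters sit in complexes II, III and IV and in cytochrome c, so genes of the chain are among the large users of cellular iron. Epe1 is a nuclear protein of the JmjC family that opposes the spread of heterochromatin, and Mst2 is a histone acetyltransferase.

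All 39 libraries were poly(A) RNA-seq of log-phase cells in EMMC medium that lacked mst2, 3 libraries in each of 13 groups. The degron strain carried nmt81-epe1-3xFLAG-AID, in which a thiamine-repressible promoter drives a tagged epe1, with skp1-OsTIR1 and skp1-AtTIR1-2NLS fusions expressed from the adh15 promoter. Depletion was started by adding thiamine and 1-naphthaleneacetic acid (TN). The time course sampled this strain at 0, 24, 48, 72, 96 and 120 h of TN. A separate memory experiment with the same strain sampled untreated cells, cells after 120 h of TN, cells then grown for 24 or 48 h without TN (recovery), and cells given a further 24 h of TN after 24 h of recovery (re-depletion). The last set was a mst2D epe1D strain without degron or TN, labelled as biological replicate 1 (3 libraries) and biological replicate 2 (3 libraries). A degron-free strain under TN was not among the groups, so the effect of thiamine and auxin analogue cannot be told apart from that of Epe1 loss. The labels do not say whether the libraries of a group came from separate cultures, so p-values measure only the spread between these samples.

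Gene counts per library ran from 20347886 to 26976973 (time course), 14781022 to 21626064 (memory) and 20733636 to 27900659 (deletion strain), and the member rows took 0.62% to 0.95% of them. The epe1 row, of which 48.5% is shared with other annotated rows, had 158 to 258 CPM (counts scaled to library size) at 120 h against 298 to 321 CPM at 0 h. In the memory experiment it had 334 to 457 CPM at 120 h against 538 to 570 CPM in untreated cells, and in the deletion strain 96.9 to 128 CPM; the fusion is also depleted as a protein, which RNA does not measure. The mst2 row is 98.5% covered by other rows and checks nothing. Re-depletion library 2 and recovery 48 h library 3 stood apart, with scaling factors of 0.575 and 0.801 and with expression that rose with the GC content of genes (Spearman rho across genes 0.708 and 0.653). Results that rest on them are given with and without them. The trend was also present in the other re-depletion libraries, with a rho of 0.477 in library 1 and of 0.636 in library 3 (scaling factor 0.849) against 0.111 to 0.182 in untreated libraries, so leaving out that pair does not remove it. Reads over overlapping rows were counted for each row: the qcr10 row held 96.7% of the counts of its antisense row, so strands could not be told apart there. Of the 43 genes, 15 overlapped no other row and 11 were covered by other rows over at least 50% of their length. The genes cox1101 and cox1102 are 99.87% identical, so their reads can be split between the copies.

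The 120 bases before the annotated start are shown for the 6 subunit genes with the largest falls at 120 h, all of complex III except cox5, and for sdh2, the gene of the chain outside the set with the largest change. Sequences and positions are from the RefSeq annotation of ASM294v3, 5′ to 3′ on the coding strand of each gene. Capitals mark CCAAT or its reverse complement ATTGG, the only motif searched.
qcr1 (chrII:2034900-2035019, minus strand): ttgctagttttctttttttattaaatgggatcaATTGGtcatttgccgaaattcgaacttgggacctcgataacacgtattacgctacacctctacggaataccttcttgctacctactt
qcr6 (chrII:4345542-4345661, minus strand): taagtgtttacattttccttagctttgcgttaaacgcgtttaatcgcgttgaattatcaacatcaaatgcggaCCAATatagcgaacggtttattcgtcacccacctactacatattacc
qcr7 (chrIII:1888050-1888169, minus strand): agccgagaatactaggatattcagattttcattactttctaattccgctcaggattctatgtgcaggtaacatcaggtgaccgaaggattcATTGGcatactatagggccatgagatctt
qcr8 (chrI:4766936-4767055, plus strand): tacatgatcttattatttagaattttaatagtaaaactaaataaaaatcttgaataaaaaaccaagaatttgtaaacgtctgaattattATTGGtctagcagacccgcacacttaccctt
qcr9 (chrIII:371143-371262, plus strand): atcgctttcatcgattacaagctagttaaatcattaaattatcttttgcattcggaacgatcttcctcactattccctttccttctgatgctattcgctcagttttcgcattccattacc
cox5 (chrIII:1357674-1357793, plus strand): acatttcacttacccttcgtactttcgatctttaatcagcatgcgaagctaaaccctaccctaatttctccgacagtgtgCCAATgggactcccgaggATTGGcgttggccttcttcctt
sdh2 (chrI:1895311-1895430, plus strand): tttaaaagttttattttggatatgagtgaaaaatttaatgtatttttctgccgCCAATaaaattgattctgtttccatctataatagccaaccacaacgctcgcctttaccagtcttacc
The motif was present on either strand in this window of 6 of 7 complex III genes (85.7%), 17 of 43 member genes (39.5%), 2 of 8 complex IV subunit genes and 951 of 5112 coding genes (18.6%). In a window of 250 bases the shares lay closer together, at 6 of 7 complex III genes (85.7%), 21 of 43 member genes (48.8%) and 1807 of 5112 coding genes (35.3%). The qcr7 window overlaps a neighbouring coding gene. By the deposited coordinates, the counted rows of the complex III genes shown and of cox5 begin inside their windows. Those of qcr6, qcr7 and cox5 include the marked motifs. The qcr9 window of 120 bases is the complex III one without a match. A match describes the letters only.

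In untreated 0 h cells the subunit genes were expressed far above the assembly genes. On a length-scaled level (CPM per kb of exon in the RefSeq annotation), atp2, the catalytic beta subunit of F1, was highest at 707 ± 34.2 (SD, n = 3). It was followed by the complex III genes qcr8 at 507 ± 24.4, qcr6 at 451 ± 29.8 and qcr1 at 390 ± 17.6, where neighbours in the order differ by a little more than the sum of their SDs. Among complex IV subunits cox12 had 368 and cox5 355 ± 15.2, which overlap in their libraries. The assembly factors ran from 95.9 for atp11, a chaperone of the F1 beta subunit in Saccharomyces cerevisiae, to 18.8 for cox18, an inner-membrane insertase. Below these were cox1102 and cox1101, the copper-delivery genes, at 4.92 and 4.40. The lowest subunit gene, cox8, had 69.6, below the assembly genes atp11, cox24 and cox17.

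At 120 h of depletion the set fell. Of the 43 genes, 22 were lower than at 0 h and 0 were higher (edgeR quasi-likelihood test, Benjamini-Hochberg adjusted p below 0.05), against 14.1% of all 6664 rows tested called, 7.76% lower and 6.38% higher. The median log2 change was -0.33 over the 43 genes and 0.01 over all rows. The fall differed in size by role, with all 7 complex III genes lower (median -0.91), 6 of 8 complex IV subunits (-0.39), 5 of 8 Fo and stalk genes (-0.36) and 2 of 5 F1 genes (-0.29). Of the assembly factors, 2 of 10 for complex IV were lower (median -0.10) and 0 of 5 for ATP synthase (median -0.07; 0 at an unadjusted p below 0.05).

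The largest fall among members was that of qcr7 (SPCC737.02c, chrIII:1886995-1888168 in ASM294v2, minus strand), a small subunit on the matrix side of complex III. It had 147, 133 and 128 CPM at 120 h, against 299, 319 and 332 CPM at 0 h, so each 120 h library lay below every 0 h library by a wide margin. The log2 change was -1.22 ± 0.15 (SE; edgeR adjusted p = 6.62e-05). For qcr8 (SPAC1782.07, chrI:4767042-4767986 in ASM294v2), a subunit next to the ubiquinone sites, the values were 161, 135 and 131 CPM at 120 h, against 292, 318 and 293 CPM at 0 h. Its groups did not overlap either, and the log2 change was -1.08 ± 0.16 (edgeR adjusted p = 3.57e-04). The core protein gene qcr1 (SPBP23A10.15c) had 438, 422 and 424 CPM at 120 h, against 766, 801 and 838 CPM at 0 h, and its log2 change was -0.91 ± 0.12 (edgeR adjusted p = 9.23e-05). These 120 h libraries were close to each other and all far below 0 h. The acidic subunit gene qcr6 changed by -0.76 ± 0.13 and the other core protein gene, qcr2, by -0.29 ± 0.08. The qcr9 row had 76.0, 63.8 and 58.7 CPM at 120 h, against 123, 137 and 137 CPM at 0 h (edgeR adjusted p = 0.00185), but mcm3, a replication helicase gene, covers 72.5% of it; the mcm3 row itself changed by -0.34. The qcr10 row and its antisense row both changed by -0.55 and share nearly all of their reads.

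In complex IV the leading gene was cox5 (SPCC338.10c, chrIII:1357740-1358712 in ASM294v2, plus strand), which encodes a nuclear subunit that spans the inner membrane. It had 163, 145 and 126 CPM at 120 h, against 311, 337 and 332 CPM at 0 h, with no overlap. The log2 change was -1.18 ± 0.17 (edgeR adjusted p = 1.89e-04). For cox6, a matrix-side subunit, the 120 h libraries had 134, 126 and 132 CPM, against 196, 212 and 199 CPM at 0 h, and the log2 change was -0.63 ± 0.09 (edgeR adjusted p = 1.19e-04). The spread of cox6 within each group was small beside the difference. Smaller falls were called for cox12 (-0.53 ± 0.13; SPNCRNA.1228 covers 28.4% of it), cox9 (-0.42 ± 0.10), cox7 (-0.36 ± 0.11) and cox4 (-0.34 ± 0.08), and cox13 and cox8 were not called. Of the assembly genes, cox17, a copper chaperone, changed by -0.49 ± 0.15. The cox14 row changed by -0.83 ± 0.12, and so did the noncoding row SPNCRNA.453 (-0.83), which covers 71.7% of it. The ATP synthase genes fell less: the largest changes were those of atp14 (-0.53 ± 0.15) and atp20 (-0.53 ± 0.08), subunits h and g of Fo and stalk in the naming of Saccharomyces cerevisiae. The F1 beta gene atp2 had 975, 1078 and 1136 CPM at 120 h, against 1318, 1411 and 1286 CPM at 0 h, and changed by -0.33 ± 0.10 (edgeR adjusted p = 0.029). Its partner in the F1 hexamer, atp1, was not called. Of the 22 calls, 16 held whichever of the 6 libraries was left out; atp2 held in 2 of 6 such fits, and atp19, cox7, atp14, cox17 and qcr2 in 1 of 6 each.

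**Figure D1:**
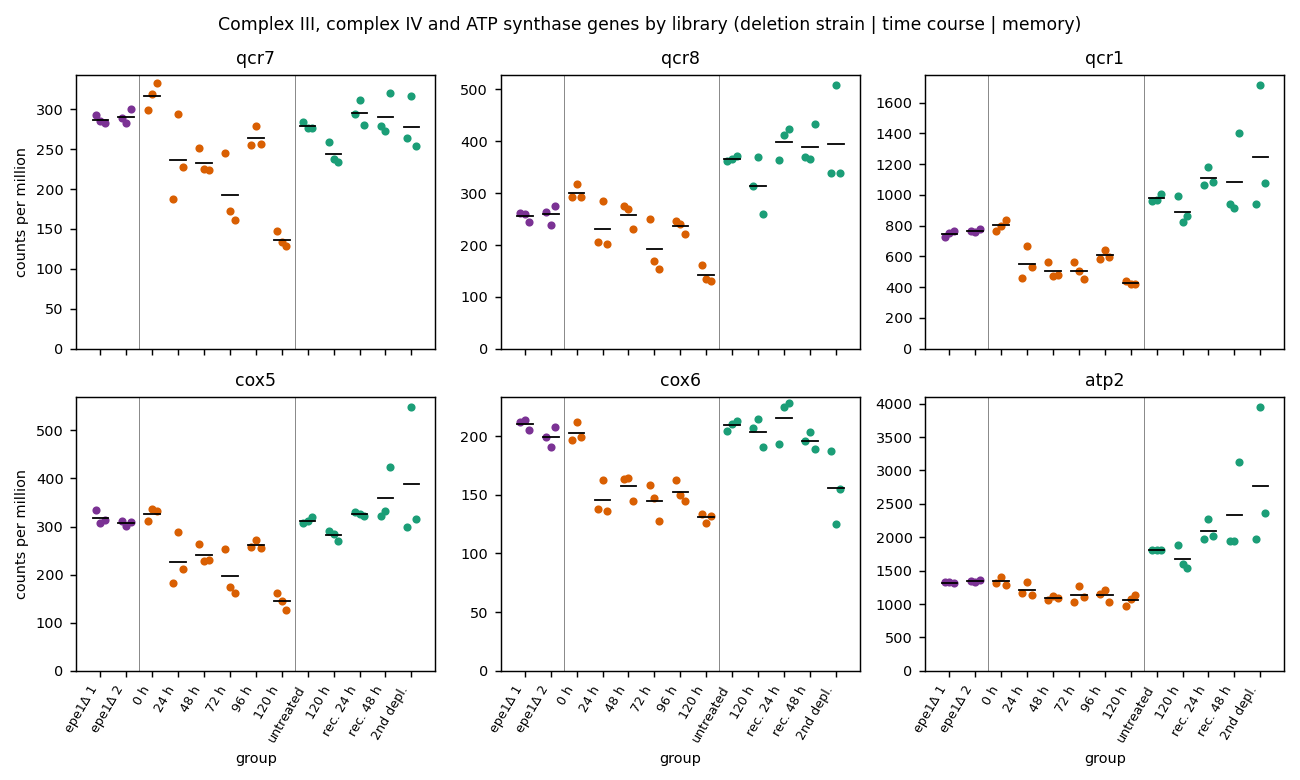
CPM per library (points) of qcr7, qcr8, qcr1, cox5, cox6 and atp2 in the 13 groups, with the mean as a bar. From left to right the deletion strain (epe1Δ), the time course and the memory experiment are shown, where rec. is recovery and 2nd depl. is re-depletion. The time course 120 h points of qcr7 lie at 128 to 147 CPM and those of the memory experiment at 234 to 259 CPM.

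The genes did not decline evenly over the time course. Against 0 h, 12 members were called after 24 h, 16 after 48 h, 16 after 72 h and 7 after 96 h. At 24 h 1 was higher and 11 lower, against 37.7% of all rows called, 20.5% higher and 17.2% lower. At 48 h 1 was higher and 15 lower, against 48% of all rows, 25.6% higher and 22.4% lower. At 72 h 1 was higher and 15 lower, against 15.8%, 10.2% higher and 5.57% lower, and at 96 h 0 were higher and 7 lower, against 12.5%, 7.56% higher and 4.94% lower. At 24 and 48 h the share of members called was thus no larger than that of all rows, although calls among members were nearly all in the lower direction. At 96 h qcr7 had 255, 279 and 256 CPM, with a mean of 264 beside 193 at 72 h and 317 at 0 h, and cox5 had 256, 273 and 255 CPM, with a mean of 262 beside 197 and 326. Neither gene was called at 96 h, and their means there lay between those at 72 h and 0 h. Single libraries within a time differed: for qcr7, 24 h library 2 had 294 CPM beside 188 and 228 CPM, and 72 h library 1 had 245 CPM beside 172 and 162 CPM. The same libraries were the high ones for cox5, at 288 CPM beside 182 and 212 CPM at 24 h and at 253 CPM beside 175 and 162 CPM at 72 h. The median log2 difference of the 15 complex III and IV subunit genes from the 0 h mean was -0.07 in 24 h library 2 against -0.42 and -0.47 in libraries 1 and 3, and -0.26 in 72 h library 1 against -0.46 and -0.56.

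**Figure D2:**
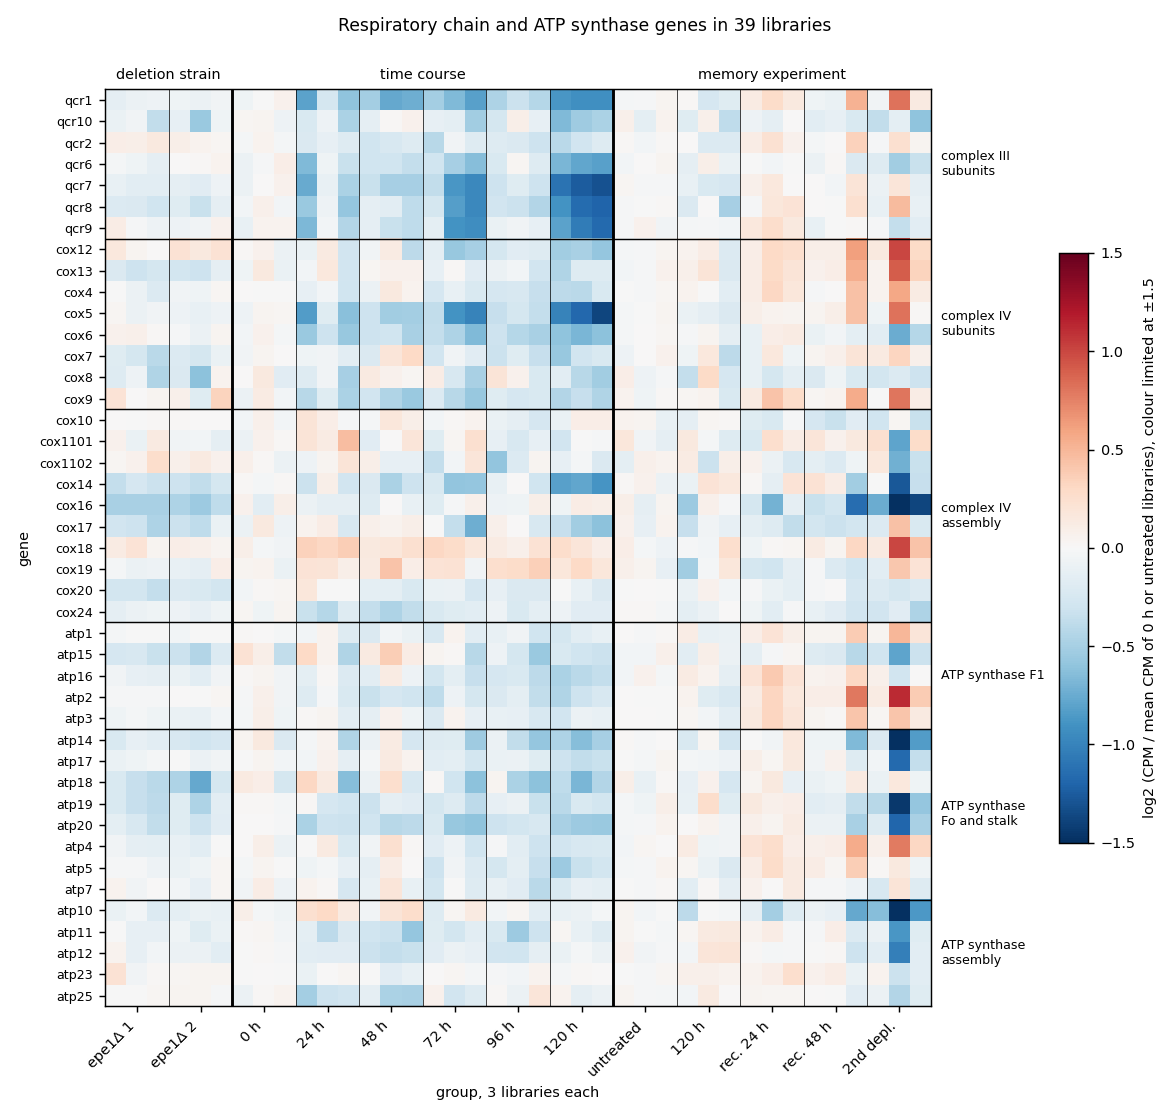
Log2 CPM of the 43 genes (rows, by role) in the 39 libraries (columns), relative to the mean of the 0 h libraries for the time course and deletion strain and of the untreated libraries for the memory experiment. Complex III and IV subunit rows are darkest in the 3 libraries of time course 120 h, with library medians of -0.60, -0.53 and -0.59.

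The genes called lower at all 5 times were qcr1, cox6 and atp20. At 96 h cox6 was called in 6 of 6 fits that left out 1 library of either group. There qcr1 and atp20 were called in 0 of 6. The atp20 gene had 103, 97.9 and 97.7 CPM at 120 h, against 144, 144 and 142 CPM at 0 h, and lay between 94.6 and 123 CPM in the other depleted libraries, so no depleted library reached the 0 h range. Its log2 change ran from -0.28 ± 0.08 at 96 h to -0.53 ± 0.08 at 120 h. The insertase gene cox18 was the one member called higher: it had 29.0, 28.4 and 29.7 CPM at 24 h, against 24.3, 22.3 and 22.1 CPM at 0 h, a log2 change of 0.34 ± 0.07 (edgeR adjusted p = 0.00131), and was also called at 48 h (0.18) and 72 h (0.25). The F1 assembly genes atp11 and atp12 were called lower at 24, 48 and 96 h and at neither 72 nor 120 h. The change of atp12 was -0.34 ± 0.05 at 48 h, although SPAC9.11 covers 69% of it. In all, 28 genes were called at some time and 15 at none. The 7 contrasts that use the 0 h libraries share them, so their calls are not independent. The counts leaned on single libraries: without 0 h library 2, 3 or 1 the 72 h count became 8, 8 or 10, and without 72 h library 2 or 3 it became 9 or 6. Without 0 h library 2 or 3 the 24 h count became 6 or 7 and the 48 h count 8 or 9, and the 48 h count became 8 or 10 without 48 h library 2 or 3. The 96 h count became 2 to 4 without any one 0 h or 96 h library.

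Consecutive times were then set against each other. From 96 h on the change was a fall in the subunit genes: at 120 h against 96 h, 9 of 43 were lower and 1 was higher, against 7.92% of all rows called, 5.99% lower and 1.94% higher. The largest differences were those of qcr7 (-0.95 ± 0.15, edgeR adjusted p = 0.00318), the mcm3-overlapped qcr9 (-0.91 ± 0.19) and cox5 (-0.86 ± 0.17, edgeR adjusted p = 0.00783), and all 9 were also lower than at 0 h. The member called higher was atp12, at 54.0, 56.5 and 54.3 CPM at 120 h against 47.2, 46.8 and 52.4 CPM at 96 h. Without 96 h library 2, or 120 h library 2 or 3, the count became 5, 5 or 4. At 72 h against 48 h, 4 genes were called, against 16.9% of all rows (6.29% higher and 10.6% lower): atp12 (0.21) and cox24 (0.20) were higher, and atp17 (-0.24) and cox4 (-0.23) lower. Same-numbered libraries of these times deviated together, and with the replicate number as a block 10 genes were called, 2 higher and 8 lower. Without blocks this count became 7, 1 or 1 without 48 h library 1, 2 or 3, and 10 or 1 without 72 h library 1 or 3.

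The largest changes of the pathway at 120 h lay outside the set, in complex II and cytochrome c. Of 46 matched genes of 58 listed names, 18 were lower at 120 h and 1 was higher than at 0 h (edgeR adjusted p below 0.05), against 14.1% of all rows called, 7.76% lower and 6.38% higher. All 3 of the other complex III genes and cytochrome c were lower, as were 5 of 7 genes of the dehydrogenases that feed the chain, 5 of 9 of the citric acid cycle, 3 of 11 further assembly factors and partners and the ADP/ATP carrier anc1 (-0.38), with 0 of 10 genes of ubiquinone synthesis (0 at an unadjusted p below 0.05). The list was chosen with earlier results of these libraries known, so it is no independent evidence of direction.

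The iron-sulfur subunit of complex II, sdh2, had 39.5, 14.6 and 13.8 CPM at 120 h, against 458, 328 and 378 CPM at 0 h, a log2 change of -4.10 ± 0.71 (edgeR adjusted p = 0.00122). Cytochrome c, cyc1, which carries electrons between complexes III and IV, had 118, 63.9 and 56.1 CPM at 120 h, against 796, 771 and 828 CPM at 0 h, a change of -3.33 ± 0.58 (edgeR adjusted p = 0.00119). In both genes library 1 was the highest of the 120 h libraries and still far below 0 h. The Rieske iron-sulfur subunit of complex III, rip1, changed by -1.74 ± 0.25, the cytochrome c1 gene cyt1 by -1.56, and the iron-sulfur enzyme aconitase, aco1, by -2.27 ± 0.53. For the regulators of iron use, fep1, an iron-sensing repressor of iron uptake genes, had 29.5, 17.1 and 15.4 CPM at 120 h, against 73.3, 64.9 and 75.8 CPM at 0 h (-1.79 ± 0.31, edgeR adjusted p = 0.00104). Transcripts of php4, a subunit that joins the CCAAT-binding complex and represses iron-using genes when iron is low, were higher, at 212, 172 and 182 CPM at 120 h against 70.4, 99.7 and 65.5 CPM at 0 h (1.26 ± 0.26, edgeR adjusted p = 0.00362).

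At the earlier times cyc1 differed widely between libraries of 1 group: it had 257, 830 and 292 CPM at 24 h, 615, 260 and 285 CPM at 48 h, 640, 199 and 156 CPM at 72 h, and 698, 739 and 676 CPM at 96 h. The libraries near the 0 h level at 24, 48 and 72 h (libraries 2, 1 and 1) were also those in which qcr7 and cox5 were highest for their time. Whether a difference in culture moved with these values was not tested.

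**Figure D3:**
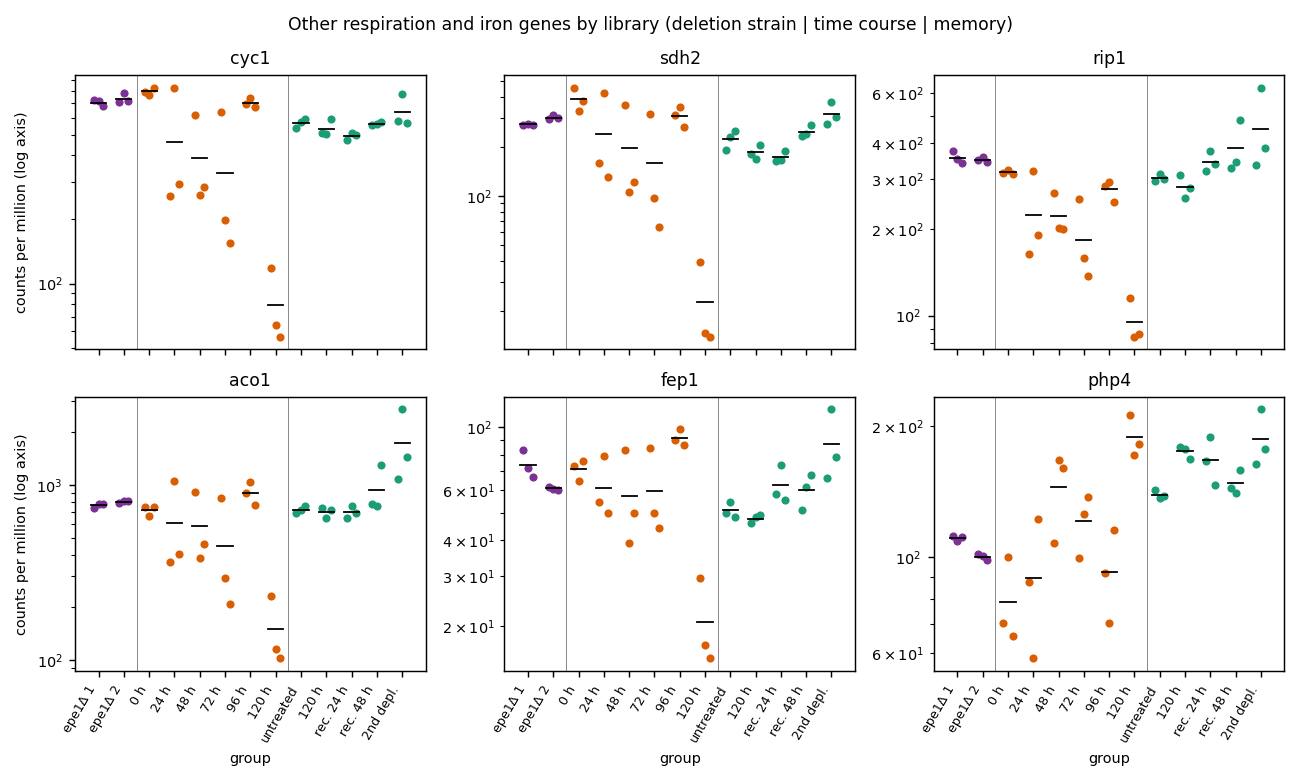
CPM per library (log axis) of cyc1, sdh2, rip1, aco1, fep1 and php4 in the 13 groups. The 120 h points of cyc1 in the time course, at 56.1 to 118 CPM, stand below all other groups, whose lowest value is 156 CPM.

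The deletion strain, which lacks epe1 throughout, kept most respiratory genes near the level of undepleted degron cells. Replicate 1 had 9 genes lower than the time course 0 h libraries and 0 higher, against 32.8% of 6581 rows called, 15.6% lower and 17.2% higher. Replicate 2 had 9 lower and 1 higher, against 31.3%, 14.8% lower and 16.5% higher, so in both the share of members called (9 or 10 of 43) was below that of all rows. The median log2 change of members was -0.08 in replicate 1 and -0.09 in replicate 2. The strains also differ in degron, tag and epe1 promoter, which cannot be told apart from the deletion. The deletion libraries were deposited apart from the time course, so batch cannot be told apart from strain either.

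Of the genes with the largest falls at 120 h, qcr7, cox5, qcr9 and qcr1 were called in neither deletion replicate. The qcr7 gene had 292, 285 and 283 CPM in deletion replicate 1 and 289, 282 and 300 CPM in replicate 2, against 299, 319 and 332 CPM at 0 h, and the changes of -0.14 and -0.13 were not called. The largest fall called in both was that of cox16, a complex IV assembly factor, at 50.8, 50.6 and 50.7 CPM in replicate 1 and 51.4, 48.5 and 54.3 CPM in replicate 2, against 73.9, 63.4 and 75.4 CPM at 0 h. The log2 changes were -0.48 ± 0.07 (edgeR adjusted p = 2.60e-04) and -0.46 ± 0.07 (edgeR adjusted p = 3.57e-04), with no overlap between strains. The cox15-antisense-1 row covers 20.5% of cox16 but had 60.9 CPM at 0 h beside 70.9 CPM for cox16. The change of cox16 thus cannot be assigned to the gene apart from the antisense row. Also lower in both replicates were cox14 (-0.31 in each), atp19 (-0.32 and -0.27), cox20 (-0.30 and -0.23), cox13 (-0.26 and -0.24), atp20 (-0.25 and -0.21) and qcr8 (-0.24 and -0.22). In replicate 1 alone cox17 (-0.35) and cox7 (-0.28) were called. In replicate 2 alone atp18 (-0.48, a row wholly within its antisense row), atp14 (-0.26) and, as the one higher gene, cox12 (0.19 ± 0.05, edgeR adjusted p = 0.0134) were called. Set against each other the replicates gave 0 calls among the 43 (edgeR), with 1 at an unadjusted p below 0.05 and 0 by DESeq2, against 0.775% of all rows. Without 0 h library 2 or deletion replicate 1 library 3 the first count became 5, and the other became 6, 5 or 4 without 0 h library 1 or 2 or deletion replicate 2 library 2.

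Set against depleted cells at 120 h, the mean of the 6 deletion libraries was higher in 23 genes and lower in 3, against 42.4% of all rows called, 20.7% higher and 21.7% lower. Strain, TN and batch differ together in this comparison and cannot be told apart. The higher genes were led by cox5 (1.12 ± 0.07, edgeR adjusted p = 7.35e-08), qcr7 (1.08 ± 0.05, edgeR adjusted p = 6.75e-09) and qcr9 (0.99 ± 0.08, edgeR adjusted p = 7.14e-07). For cox5 the deletion libraries spanned 302 to 334 CPM, against 126 to 163 CPM at 120 h. The lower genes were cox16 (-0.52 ± 0.06), cox19 (-0.27) and cox20 (-0.16), all assembly factors of complex IV. The cytochrome c gene cyc1 spanned 677 to 783 CPM in the deletion libraries, against 56.1 to 118 CPM at 120 h.

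In the memory experiment 120 h of depletion left the set close to untreated cells. Of the 43 genes, 0 were called (edgeR), with 1 at an unadjusted p below 0.05 and 0 by DESeq2, against 6.15% of 6485 rows, and the median log2 change was -0.07. The qcr7 gene had 259, 238 and 234 CPM at 120 h, against 284, 277 and 277 CPM in untreated cells, and cox5 had 291, 284 and 270 CPM against 306, 311 and 320 CPM. In both genes the 120 h libraries lay just below the untreated ones without overlap, and the changes were -0.22 ± 0.09 (edgeR adjusted p = 0.23) and -0.18 ± 0.18 (edgeR adjusted p = 0.826). With re-depletion library 2 and recovery 48 h library 3 left out of the shared fit, these became the 2 genes called, at -0.21 (edgeR adjusted p = 0.0158) and -0.17 (edgeR adjusted p = 0.0366). Outside the set, cyc1 had 509, 501 and 589 CPM at 120 h against 540, 573 and 592 CPM in untreated cells. Of the 46 pathway genes gut2, the mitochondrial glycerol-3-phosphate dehydrogenase, was the one called, at 325, 256 and 257 CPM against 552, 416 and 508 CPM (-0.84 ± 0.19, edgeR adjusted p = 0.0138).

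The difference between the 120 h effects of the memory experiment and the time course was tested as an interaction in a fit of both experiments. It was called for 6 of 43 genes, all with the smaller fall in the memory experiment, against 3.81% of 6528 rows called, 1.93% in that direction and 1.88% in the other. The differences (memory minus time course, log2) were 1.01 ± 0.26 for cox5 (edgeR adjusted p = 0.0227), 1.01 ± 0.19 for qcr7 (edgeR adjusted p = 0.00284), 0.96 ± 0.22 for qcr9 (edgeR adjusted p = 0.00982), 0.84 for qcr8, 0.70 for qcr6 and 0.58 for cox6. Of these qcr7, qcr9 and qcr6 held in all 33 fits that left out a library, cox5 and cox6 in 30 and qcr8 in 23. The count became 3 without untreated library 1 and 10 without re-depletion library 2. Among the pathway genes the difference was 3.82 for sdh2 and 3.23 for cyc1. Both experiments carry the same label for strain and TN, and experiment and batch cannot be told apart.

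**Figure D4:**
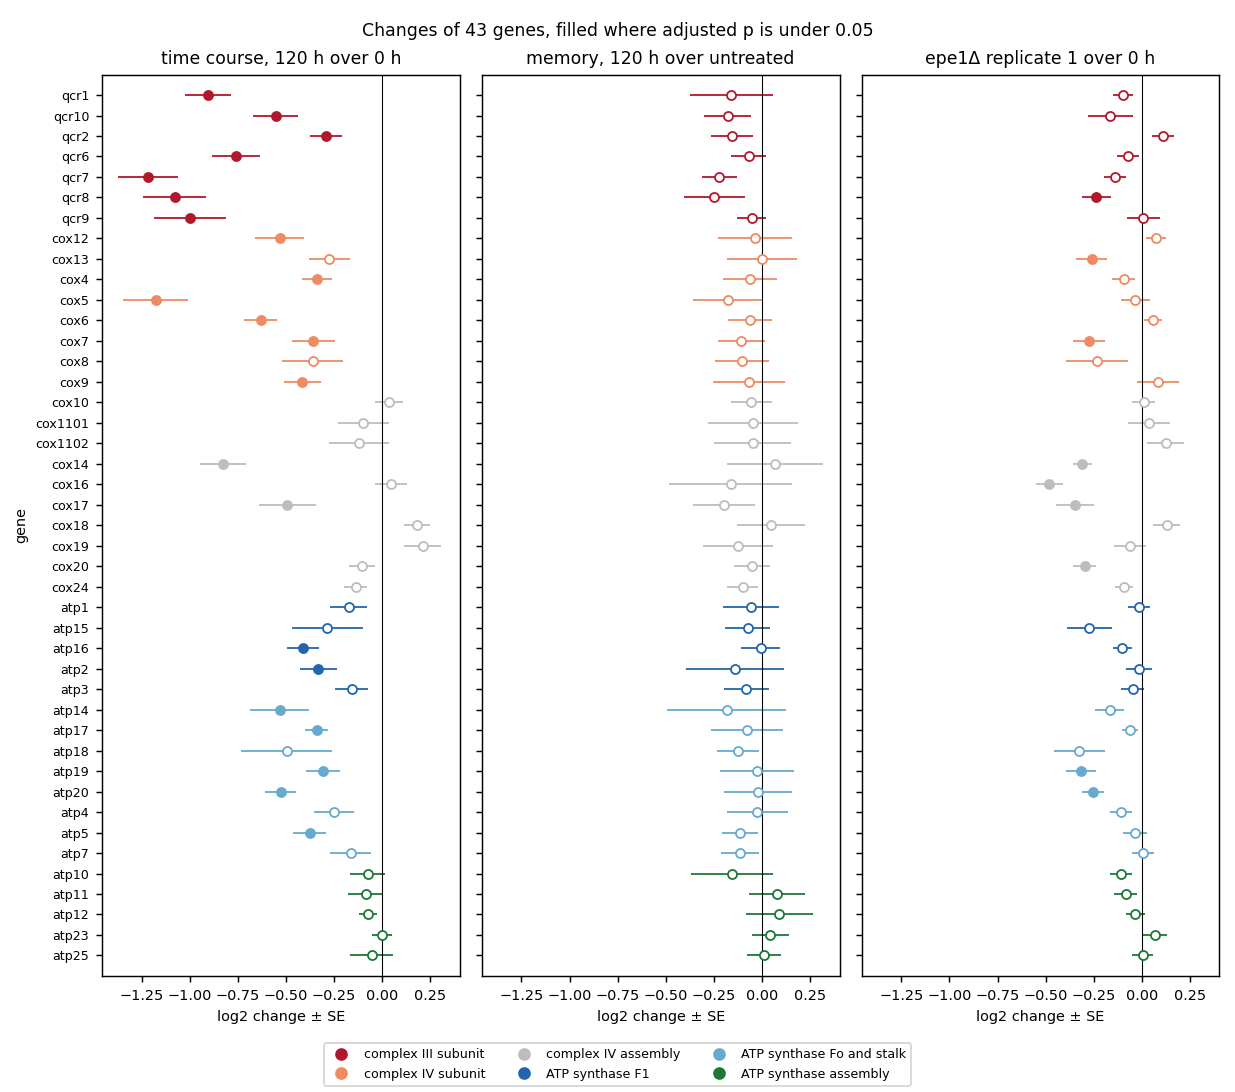
Log2 change ± SE of the 43 genes for time course 120 h against 0 h, memory 120 h against untreated cells, and deletion replicate 1 against 0 h; filled points were called (edgeR adjusted p below 0.05). Complex III genes lie between -1.22 and -0.29 in the time course, and no point is filled for the memory experiment.

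Recovery brought no called difference from untreated cells. At 24 h of recovery 0 of 43 genes were called (edgeR; 1 at an unadjusted p below 0.05, 0 by DESeq2), against 3.04% of all rows, and at 48 h 0 were called (3 at an unadjusted p below 0.05, 0 by DESeq2), against 2.42%. The qcr7 gene had 294, 312 and 280 CPM at 24 h and 279, 272 and 320 CPM at 48 h of recovery, which straddle the untreated values. Against memory 120 h, the 24 h recovery libraries also gave 0 calls (edgeR; 7 at an unadjusted p below 0.05, 1 by DESeq2), against 4.73%, with a median of 0.08. With the pair of libraries that stood apart left out of the fit, 11 genes were higher than at memory 120 h, from atp3, atp5 and atp16 of ATP synthase to 5 of complex III, and the sizes were small: 0.34 for qcr8, 0.32 for cox9, 0.31 for qcr1 and 0.27 for qcr7. In that fit atp16 (0.25) and cox9 (0.26) were also higher than in untreated cells. Leaving out re-depletion library 2 alone gave 2 calls for recovery against 120 h and 1 for 48 h of recovery. The gut2 gene had 105, 103 and 81.9 CPM at 24 h of recovery, against 552, 416 and 508 CPM in untreated cells (-2.38 ± 0.20, edgeR adjusted p = 2.74e-05), and was back at 526, 489 and 569 CPM at 48 h.

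After re-depletion the rows of the assembly genes cox16 and atp10, which share reads with other rows, had the largest falls. The values leaned on library 2 and on the GC content of genes. Against untreated cells 12 genes were lower and 2 higher, against 44.7% of all rows called, 22% lower and 22.7% higher, so the share of members (14 of 43) was below that of all rows. The largest fall was that of cox16, at 26.4, 8.47 and 16.9 CPM after re-depletion, against 44.0 ± 3.64 CPM in untreated cells (SD, n = 3). The log2 change was -1.34 ± 0.33 (edgeR adjusted p = 0.00849) with all libraries and -1.04 (edgeR adjusted p = 0.0164) without library 2. The ATP synthase assembly gene atp10 had 34.0, 18.4 and 29.0 CPM, against 54.5, 51.4 and 52.5 CPM in untreated cells, and changed by -0.97 ± 0.22 (edgeR adjusted p = 0.00588), or -0.76 without library 2. The gos1 row covers 90.6% of atp10 and held nearly the same counts, at 57.2 CPM beside 57.45 CPM for atp10 at 0 h of the time course. It changed by -0.96, so the fall cannot be assigned to atp10 apart from gos1. In cox16 and atp10 library 2 was the lowest and the groups did not overlap. The stalk gene atp14 changed by -0.87 ± 0.31, with 41.9 CPM in library 2 beside 153 and 99.9 CPM, and was not called without it (-0.51, edgeR adjusted p = 0.0543).

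The remaining genes called lower were atp19 (-0.75), atp20 (-0.58), atp15 (-0.47), cox6 (-0.45), qcr10 (-0.39), qcr6 (-0.36), cox24 (-0.33), atp25 (-0.25) and cox20 (-0.25). Of these atp25 (edgeR adjusted p = 0.12) and cox20 (edgeR adjusted p = 0.0869) were not called without library 2. The genes called higher, cox18 (0.53 ± 0.18) and cox12 (0.50 ± 0.19), had 37.7 and 292 CPM in library 2, against at most 25.3 and 178 CPM in the other re-depletion libraries. Without library 2 they changed by 0.27 and 0.20 and were not called. With library 2 and recovery 48 h library 3 left out together, 14 genes were lower and 0 higher. Leaving out untreated library 1, 2 or 3 gave 7, 8 or 7 calls, and leaving out re-depletion library 1 gave 25.

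The GC trend moved with these values. Library 2 had 1713 CPM for qcr1 beside 942 and 1076 CPM, and 3946 CPM for atp2 beside 1978 and 2357 CPM, and both are among the most GC-rich members, at 42.4% and 41.3%. After correction for GC content, qcr1 changed by -0.37 in place of 0.33, cox5 by -0.32 in place of 0.29, qcr2 by -0.44 in place of 0.07 and cox7, the member lowest in GC (29.1%), by 1.36 in place of 0.16, each of them then called. The fall of atp15 became 0.10 (edgeR adjusted p = 0.478) and that of cox20 became 0.00 (edgeR adjusted p = 0.984). For these 6 genes the change at re-depletion thus depended on the GC correction, and no direction is concluded from it. The calls of atp15 and cox20 given above are those of the uncorrected fit. The genes cox19 (0.80 in place of 0.14) and cox10 (-0.49 in place of -0.22) were likewise called only after correction, with the same sign. The correction also ended the calls of atp19 (-0.29), qcr10 (-0.20) and cox24 (-0.13), with edgeR adjusted p of 0.0731, 0.296 and 0.301. The changes of cox16 (-0.73), atp10 (-0.71), qcr6 (-0.60), atp14 (-0.53, edgeR adjusted p = 0.0484), atp20 (-0.45), cox6 (-0.24), atp25 (-0.24), cox18 (0.76) and cox12 (0.63) remained called after it.

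**Figure D5:**
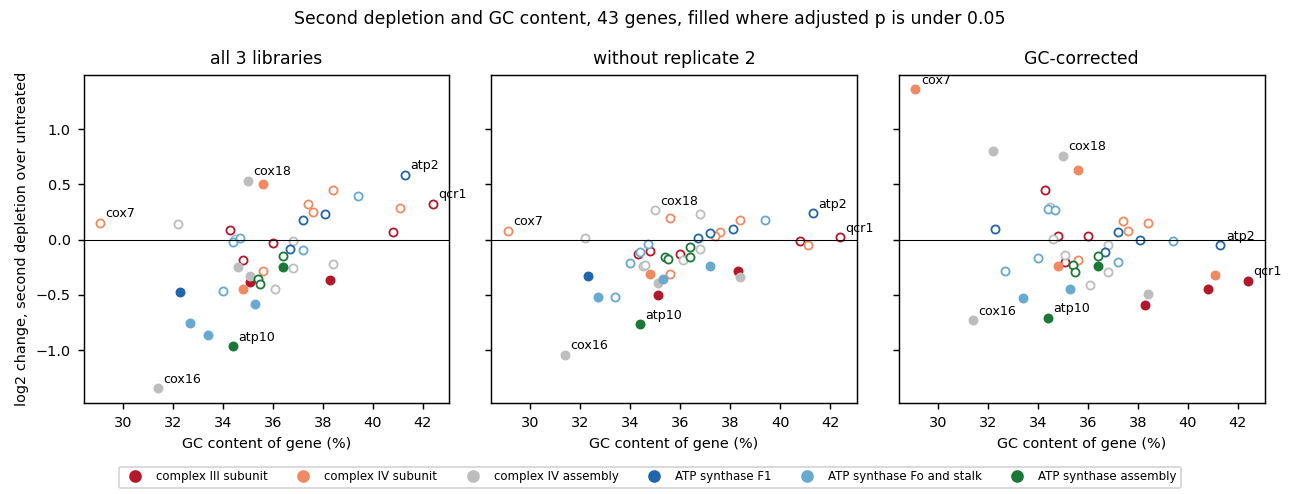
Log2 change after re-depletion against untreated cells for the 43 genes, plotted against the GC content of the gene (%), with all 3 libraries, without library 2 and after GC correction. With all libraries the lowest point is cox16 (-1.34, at 31.4% GC) and the highest atp2 (0.59, at 41.3%). The gene lowest in GC, cox7 (29.1%), lies at 0.16.

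Against 24 h of recovery, the state just before it, re-depletion gave 10 genes lower and 1 higher, against 27.8% of all rows called, 11.5% lower and 16.3% higher. They were led by cox16 (-0.96 ± 0.33), atp19 (-0.83 ± 0.20) and atp10 (-0.67 ± 0.22) on the lower side, with cox18 (0.57 ± 0.18) on the higher. After GC correction these 4 were still called, at -0.55, -0.51, -0.47 and 0.76, while atp15 (-0.0019, edgeR adjusted p = 0.991) and qcr9 (-0.17, edgeR adjusted p = 0.0897) were not. With re-depletion library 2 and recovery 48 h library 3 left out, cox16 (-0.67), atp19 (-0.60) and atp10 (-0.47) were called and cox18 was not. In fits that left out 1 library of either group, atp19 was called in 6 of 6. There cox16, atp10 and cox18 were each called in 2 of 6. Without recovery 24 h library 1, 2 or 3 the count became 3, 7 or 2, and without re-depletion library 1, 2 or 3 it became 21, 7 or 6.

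Both experiments hold a 24 h depletion, and their effects were compared by an interaction. Re-depletion was set against never-depleted untreated cells, and the first 24 h of TN against 0 h cells. The re-depletion effect thus also includes the earlier 120 h of TN and the 24 h of recovery. By this test 6 genes had the higher change at re-depletion and 4 the lower, against 43.4% of all rows called, 21.6% higher and 21.8% lower. The largest positive differences were those of qcr1 (0.90 ± 0.25, edgeR adjusted p = 0.00593), cox5 (0.84 ± 0.26) and atp2 (0.76 ± 0.26). The largest negative ones were those of cox16 (-1.18 ± 0.32), atp10 (-1.16 ± 0.23, edgeR adjusted p = 6.63e-04) and atp19 (-0.55 ± 0.21). The gos1 row, which shares nearly all reads of atp10, had a difference of -1.16. The count became 18 without re-depletion library 1, 4 without library 2, and 6 without 0 h library 1 or 2 or untreated library 2. With re-depletion library 2 and recovery 48 h library 3 both left out, qcr1 (0.60), cox5 (0.51), atp2 (0.42), cox16 (-0.89) and atp10 (-0.96) were among the genes called. In that fit atp19, cox12, cox4 and cox20 were not called. After GC correction 8 genes were called, 5 higher and 3 lower. The differences of qcr1 (0.13, edgeR adjusted p = 0.467), cox5 (0.19, edgeR adjusted p = 0.443), atp2 (0.07, edgeR adjusted p = 0.589) and atp19 (0.01, edgeR adjusted p = 0.966) were then not called. Those of cox16 (-0.40, edgeR adjusted p = 0.0424), atp10 (-0.90, edgeR adjusted p = 3.24e-04), cox12 (0.72) and cox9 (0.53) were still called.

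The 5 antisense rows share reads with genes of the set. At 120 h 1 of them was called lower, qcr10-antisense-1 (-0.55), which contains the whole qcr10 gene. The cox15-antisense-1 row, 88.5% of which lies in cox16, changed by -1.42 after re-depletion and was called in both deletion replicates, as cox16 was. Gene and antisense RNA could not be told apart there. The counts of cox1101-antisense-1 were 99.2% of those of cox1101 and those of atp18 were 74.3% of those of atp18-antisense-1, so no separate level of these antisense RNAs can be given. In these bulk samples, fewer cells expressing a gene and less RNA per cell cannot be told apart.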

How the data were processed

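RNA was measured in 39 libraries, 3 in each of 13 groups taken from the labels. Per the submitters' processing notes, reads were trimmed with Trimmomatic and aligned with STAR to ASM294v2; the counter is not given in the sources used here. The authors deposited 3 tables of whole-number read counts per annotated row, and 6 sample columns that match no labelled library were not used. Titles were followed where the treatment label of the re-depletion libraries differs. The members and lists were chosen with earlier results of these data known.

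Counts were analysed with edgeR 4.0.16 in R 4.3.3 (TMM scaling, filterByExpr, robust quasi-likelihood F test, two-sided), with Benjamini-Hochberg adjustment over all rows tested and calls at an adjusted p below 0.05. There were 4 fits, of the time course alone, of the memory libraries alone, of the deletion strain with 0 h and 120 h, and of both degron experiments together for differences between effects. They gave 19 contrasts, of which 7 share the 0 h libraries and 4 the memory untreated libraries. CPM were scaled by TMM over all libraries, and levels set across tables share no common normalization by the authors. SE is the size of the log2 change divided by the root of F. Members named with library values are the up to 3 most raised and 3 most lowered per contrast, called, with a mean of at least 5 CPM and groups that do not overlap (overlap was not asked of differences between effects); others were named by role, after their values were seen. The pathway lists held 58 names, 46 of them matched. Sequences were taken from RefSeq ASM294v3, whose gene coordinates differ from the deposited ones. Exon lengths and the GC content of genes also came from RefSeq, matched by gene identifier, while the counts are of the deposited rows. Levels per kb and the GC correction thus combine both annotations.

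Alternatives were DESeq2 size factors, no filter, DESeq2 1.42.0, a replicate block, the compared groups alone, GC correction (lowess, span 0.3), both together, and leaving out each library; leaving out re-depletion library 2 and recovery 48 h library 3 together was chosen after seeing the data. The block was taken as pairing where the correlation of same-numbered libraries passed a cutoff in all pairs. These were 72 h against 0 h (correlations 0.165, 0.175 and 0.161) and 72 h against 48 h (0.626, 0.458 and 0.369). Correlations were also all positive for 48 h against 0 h (0.0228, 0.235 and 0.196) and recovery 48 h against untreated cells (0.146, 0.0661 and 0.147). The same held for re-depletion against recovery 24 h (0.411, 0.436 and 0.0438). No pairing was taken there. On simulated counts 190 of 200 genes changed 2-fold were recovered for 24 h against 0 h (6653 genes), 181 of 200 for memory 120 h (6470 genes), 195 of 200 for deletion replicate 1 (6566 genes) and 153 of 200 for the difference of the 120 h effects (6527 genes). No pair of libraries of a group agreed within sampling noise (lowest chi-square over degrees of freedom 3.61 over 39 pairs). Figures were drawn with matplotlib 3.10.9 in Python 3.11.15.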

Additional observations from a re-analysis of the deposited data

Results flagged for a closer look

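The results below stood out because depletion effects differed between the memory experiment and the time course, by an interaction term in the edgeR fit of both experiments. For 120 h of depletion, the difference (memory minus time course, log2) was 1.01 for cox5, 1.01 for qcr7, 0.96 for qcr9, 0.84 for qcr8, 0.70 for qcr6 and 0.58 for cox6, higher in the memory experiment in each. For the 24 h effects, re-depletion was set against never-depleted untreated cells, not against the recovery state before it. The 24 h effects come from unlike states: re-depletion followed 120 h of TN and 24 h of recovery, while the time course gave a first 24 h of TN. For them the difference (re-depletion minus time course) was 0.90 for qcr1, 0.84 for cox5, 0.76 for atp2, 0.70 for cox9, 0.61 for cox12 and 0.43 for cox4. It was -1.18 for cox16, -1.16 for atp10, -0.55 for atp19, -0.28 for cox20 and -1.23 for the antisense row cox15-antisense-1, which lies largely in cox16. The atp10 row is covered over 90.6% by gos1 and cannot be told apart from it. After GC correction the 24 h differences of qcr1 (0.13), cox5 (0.19), atp2 (0.07), cox4 (0.23), atp19 (0.01) and cox20 (-0.02) were not called, and those of cox9 (0.53), cox12 (0.72), cox16 (-0.40), atp10 (-0.90) and cox15-antisense-1 (-1.02) were still called by edgeR.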

How the results depend on the processing

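Counts of members called stayed within 1.5 times their value under DESeq2 size factors and with no filter on low counts in every contrast. Exceptions elsewhere are as follows. With only the compared groups in the fit, the count was 8 for 72 h, 0 for 72 h against 48 h, 1 for memory 120 h, 2 for recovery 24 h, 2 for re-depletion against untreated cells, 2 for recovery 24 h against memory 120 h, 0 for re-depletion against recovery 24 h, 13 for the difference of the 120 h effects and 3 for that of the 24 h effects. With the replicate block it was 14 for 96 h, 10 for 72 h against 48 h and 6 for re-depletion against recovery 24 h, and with GC correction and the block 13 for 96 h and 8 for 72 h against 48 h. The block changed no other count by over 1.5 times, and it was taken as pairing only at 72 h against 0 h and against 48 h. For recovery 24 h against memory 120 h, DESeq2 and GC correction each called 1. With re-depletion library 2 and recovery 48 h library 3 left out, the count was 2 for memory 120 h, 2 for recovery 24 h, 11 for recovery 24 h against memory 120 h and 10 for the difference of the 120 h effects. The cause was not tested, except that fits of the compared groups alone hold fewer libraries.

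Leaving out 1 library in turn gave 6 to 16 calls for 24 h, 8 to 17 for 48 h, 6 to 16 for 72 h, 2 to 8 for 96 h, 16 to 22 for 120 h, 1 to 10 for 72 h against 48 h and 4 to 12 for 120 h against 96 h. It gave 5 to 11 and 4 to 13 for deletion replicates 1 and 2 and 0 to 1 for recovery 48 h. It gave 7 to 25 for re-depletion, 0 to 2 for recovery 24 h against memory 120 h and 2 to 21 for re-depletion against recovery 24 h. For the differences of effects it gave 3 to 10 at 120 h and 4 to 18 at 24 h. Over the called log2 changes of all member rows, 2648 values kept and 523 lost the call when 1 library was left out, and 1193 kept and 127 lost it under the other alternatives. Another 6 changed sign, all under GC correction: for re-depletion against untreated cells cox20 became 0.0028 (0.0033 with the block) and atp15 0.1004 (0.0995 with the block), and for the difference of the 24 h effects atp19 became 0.0099 (0.0129 with the block). Depth limits cox1101 most, the lowest member at 4.40 CPM per kb.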
